A study of Mus musculus with 6 samples.

Results

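The 4 mouse genes of the FoxO family, Foxo1, Foxo3, Foxo4 and Foxo6, were examined for Gli3 binding sites in the embryonic cortex. A site was counted for a gene when its midpoint lay inside the gene body or within 100 kb of the transcription start site (TSS) of the gene in the GENCODE M21 annotation of mm10. By this rule 16 of the 4114 sites of the list belonged to the family, 12 to Foxo6, 2 to Foxo1, 2 to Foxo4 and 0 to Foxo3. The members were selected on the positions of the sites themselves, and Foxo6 was singled out for its many sites, so the counts by gene are a description and carry no test. All counts rest on the rows of the list used here, which may not hold every site that the authors called.

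The sites come from chromatin immunoprecipitation followed by sequencing (ChIP-seq), which recovers the DNA fragments that a protein occupies. Cerebral cortex of wild-type mouse embryos at embryonic day 15 gave 3 libraries with a Gli3 antibody and 3 libraries of input DNA, and these 6 libraries hold no other genotype or treatment. The authors joined the replicates into 1 list that gives the position of each site and neither its height nor its p-value, so the strength of a site, the error between embryos and the read depth are unknown. The cortex holds many cell types, and a list of sites does not tell in which of them Gli3 occupied a site.

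FoxO proteins are forkhead transcription factors that act downstream of insulin and growth factor receptors. When the receptors are active, phosphatidylinositol 3-kinase (PI3K) activates the kinase Akt, which phosphorylates FoxO proteins and keeps them out of the nucleus, and when the pathway is quiet they enter the nucleus and bind genes of the cell cycle, of stress resistance and of metabolism. Foxo3 maintains adult neural stem cells, Foxo1 is best known from glucose metabolism and blood vessels, Foxo4 lies on the X chromosome, and Foxo6 is expressed mainly in the brain and leaves the nucleus less readily than the others. Gli3 is a zinc finger protein of the Sonic hedgehog pathway that acts mostly as a repressor when the pathway is off.

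Foxo6 had the densest sites of the family. The gene lies on the minus strand at chr4:120267079-120287349, and 4 of its 12 sites had their midpoint in the gene body, 2 lay upstream of the TSS and 6 lay beyond the 3′ end. Among all 21938 protein-coding genes, 37.4% had 1 or more sites by the same rule, 13.3% had 2 or more, and 0.0729%, or 16 genes, had as many as Foxo6 or more. Foxo1 and Foxo4, with 2 sites each, were thus not unusual by this count, and Foxo3 was among the 62.6% with 0.

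**Figure D1:**
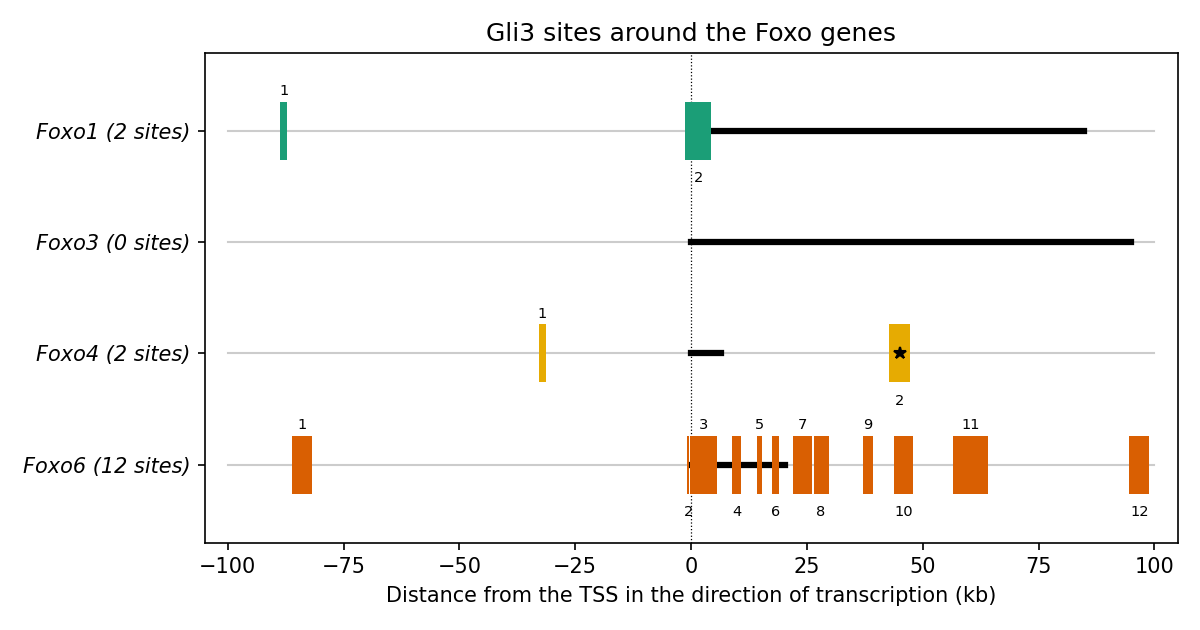
Gli3 sites around the 4 Foxo genes. The x axis is the distance from the TSS in kb in the direction of transcription, coloured boxes are sites drawn to scale and numbered along the gene, black lines are gene bodies, and the star marks the site with an exact GLI core. Foxo6 has 12 sites, 10 of them between -0.63 and 60.3 kb, while Foxo3 has 0.

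The map of sites around the Foxo genes shows that the sites of Foxo6 form a row from just upstream of the TSS to the region beyond the 3′ end. Numbered in the direction of transcription, site 1 stood alone upstream at -84.0 kb from the TSS, sites 2 to 11 followed each other, and site 12 stood alone downstream at 96.8 kb. The sequence that follows shows the promoter end of the row. The central 300 bases of site 2 (mm10, plus strand, chr4:120287830-120288129), just upstream of the Foxo6 TSS, were 69.7% G and C with 27 CpG dinucleotides. Capitals mark matches to the SP word GGGCGGGG, which zinc finger proteins of the Sp family bind, on either strand.
Foxo6 site 2, centre: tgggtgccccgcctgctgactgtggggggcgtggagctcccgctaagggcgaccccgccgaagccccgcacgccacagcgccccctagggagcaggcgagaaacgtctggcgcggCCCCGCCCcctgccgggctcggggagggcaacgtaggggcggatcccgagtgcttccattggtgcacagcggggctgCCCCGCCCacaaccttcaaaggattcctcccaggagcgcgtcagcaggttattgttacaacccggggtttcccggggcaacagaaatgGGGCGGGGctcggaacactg

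Site 3 was the site that covered the start of the gene. It was 5647 bp wide, ran from 120281834 to 120287480 on chromosome 4, and contained the TSS and all 511 bp of the first exon, with its midpoint 2.69 kb downstream of the TSS, in an intron. RefSeq also has a predicted transcript of Foxo6 whose first exon, at 120282256-120282387, lies inside the same site. Site 2, at 120287700-120288259, was separated from it by 219 bp and was the narrowest of the 12, with 560 bp, and its midpoint was 0.63 kb from the TSS.

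The gene body contained 3 further sites. Site 4 (120276487-120278545) was 2059 bp wide and site 5 (120272043-120273095) was 1053 bp wide. Both lay in the same intron, between the first and the last exon. Site 6 (120268449-120269921) was 1473 bp wide, and it covered 734 bp, or 34.9%, of the last exon, which has 2104 bp. Sites together covered 10101 bp, or 49.8%, of the 20.3 kb gene body and 47.6% of its exon sequence. Of the 8057 coding genes whose body is 0.5 to 2 times as long, 560 had any site in the body, and 1 had a larger share of it covered.

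A further 5 sites of the row lay beyond the 3′ end. Site 7 (120261258-120265441) was 4184 bp wide, and 350 bp separated it from site 8 (120257684-120260907), of 3224 bp. Site 9 (120248139-120250342) had 2204 bp and site 10 (120239366-120243603) had 4238 bp. Site 11 (120223299-120230826) was the widest of the 16 family sites, at 7528 bp, wider than 99.5% of all sites of the list. All 5 were intergenic, and Foxo6 had the nearest coding TSS.

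The sites at the 2 ends of the window stood outside the row and nearer to other genes. Site 1 (120369222-120373537), of 4316 bp, had Scmh1, a Polycomb group gene, as its nearest coding TSS, and site 12 (120188407-120192741), of 4335 bp, had Edn2, an endothelin gene, 29.4 kb away. The edge of the rule fell close to site 12, at 96.8 kb inside it, and the next site, 941 bp wide and intergenic, lay at 114.927 kb and was not counted. On the upstream side the next site was at -134.22 kb, in an intron of Scmh1. For the other genes the counted sites closest to the edge of the window were at -87.9 kb for Foxo1 and 45.0 kb for Foxo4, and the first sites beyond it were at 133.472 kb and 175.262 kb.

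The row of sites 2 to 11 was 64.961 kb long, from 120223299 to 120288259, when neighbours with a gap of 15 kb or less were joined. The 10 sites covered 32170 bp, or 49.5%, of it. The whole list formed 3672 such runs, of which 5 had 10 or more sites and 3 had more than 10, with 12 in the longest. Counted by windows, sites 5 to 10 each had 10 sites within 50 kb of their midpoint, themselves included, where the median over all sites was 1 and 41 sites, or 1.00%, had as many or more. The 2 sites of Foxo1 and the 2 of Foxo4 had 1 each, that is, only themselves.

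**Figure D2:**
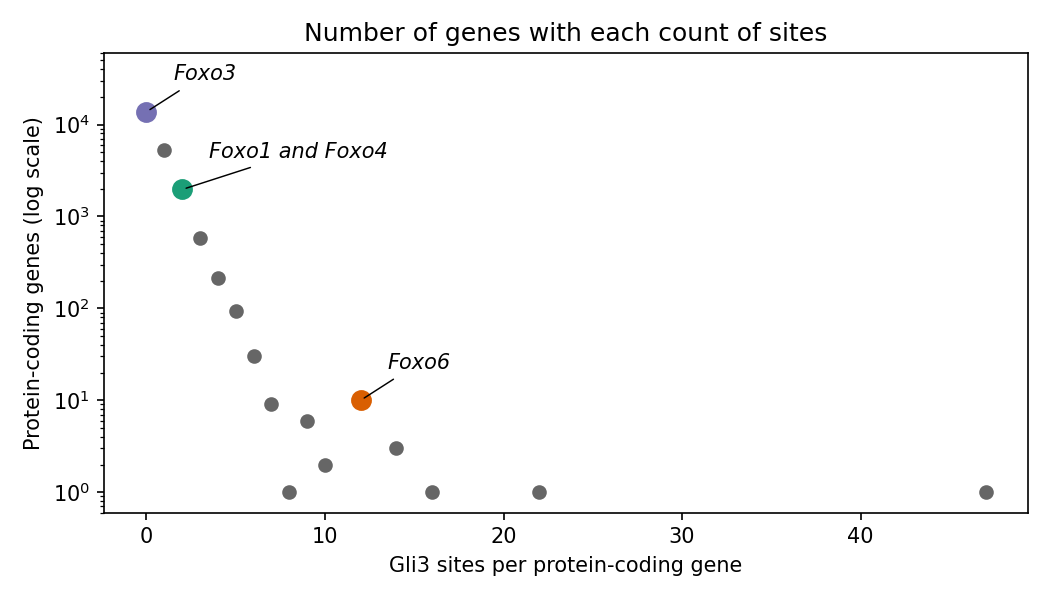
Protein-coding genes by their number of Gli3 sites. The x axis is the number of sites inside the gene body or within 100 kb of the TSS, and the y axis is the number of genes on a log scale. Foxo3 is in the point at 0, Foxo1 and Foxo4 are in the point at 2, and Foxo6 is 1 of the 10 genes at 12.

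The plot of genes by their number of sites places Foxo6 near the end of the distribution. The genes with more sites included Gm20388 with 47, Gse1 with 22, and Pdia4, Zfp398 and Zfp786 with 14 each, and 9 predicted genes in 1 cluster on chromosome 9 also had 12. Neighbouring genes share sites in this count. When the 148 sites made of more than 50% repeated 32-base words were left out, 4 genes remained at 12 or more, among them Gm20388 with 37, Gse1 with 22 and Foxo6 with 12, while Fancc and Msi2 followed with 10 each. None of the Foxo6 sites was left out by that filter, since repeated words made up 0 to 3.94% of them. In site sequence, 40821 bp by the sum over its sites, Foxo6 was exceeded by Gm20388 and Gse1. Gm20388 is annotated over 4435 kb of chromosome 8 and contains the whole body of Gse1, so sites in Gse1 are counted for both.

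Sites inside the gene body gave the same picture. As many as the 4 of Foxo6 were found in 0.128% of coding genes, 28 in all, and in 0.0248% of the 8057 genes of like length, which were Foxo6 itself and Draxin. Draxin, a guidance protein for axons, had 4 body sites in 32.3 kb and was the gene with the pattern most like that of Foxo6 by the ranking used, the number of sites in the body among genes of 0.5 to 2 times its length. Lasp1, an actin-binding protein, followed with 3 sites in 39.8 kb, and Ptbp1, a splicing repressor in neural progenitors, Mettl23 and Cstad had 2 each. Foxo6 had 1.97 body sites per 10 kb and Ptbp1 had 1.93.

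Foxo1 had a site over its start. The gene, on the plus strand at chr3:52268336-52353221, has 1 annotated transcript, and site 2 (52267092-52272563) was 5472 bp wide and covered the TSS and all 1087 bp of the first exon. Its midpoint lay 1.49 kb downstream of the Foxo1 TSS, within 2 kb of the start of the antisense gene Gm20402 as well. Site 1 (52179599-52181190), of 1592 bp, was upstream, at -87.9 kb, and at the promoter of the noncoding gene Gm30074, and its nearest coding TSS was that of Maml3, a Notch coactivator. The wide site at the start was therefore the only family site of Foxo1 that touched the gene.

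Foxo3 and Foxo4 had no site on the gene. For Foxo3, on the minus strand at chr10:42181841-42276755, the nearest site midpoints were at -337.481 kb, in an intron of Ostm1, and at 341.992 kb, in an intron of Armc2. Foxo4, on the plus strand at chrX:101254528-101260873, is 6.35 kb long, and both of its sites were at promoters of neighbours. Site 1 (101221622-101223271), of 1650 bp, lay 0.117 kb from the TSS of Snx12, a sorting nexin, and site 2 (101297280-101301809), of 4530 bp, lay 0.376 kb from that of Nlgn3, a synaptic adhesion protein. The rule by distance assigns them to Foxo4, and the list gives no measure of which gene a site acts on.

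The sequence at the start of Foxo1 and Foxo3 is shown because 1 was inside a site and the other was not. The 250 bases that end at the RefSeq start (GRCm38.p6, the assembly of mm10) were all inside site 2 for Foxo1 (plus strand, chr3:52268087-52268336) and 0 of them were in a site for Foxo3 (minus strand, chr10:42276696-42276945). Of the 4 family members, 2 had an entry among the RefSeq promoters, Foxo1 and Foxo3. Capitals mark the SP word, of which Foxo1 had 0 copies and Foxo3 had 2, and 16.1% of the 32851 promoters in the table held it.
Foxo1: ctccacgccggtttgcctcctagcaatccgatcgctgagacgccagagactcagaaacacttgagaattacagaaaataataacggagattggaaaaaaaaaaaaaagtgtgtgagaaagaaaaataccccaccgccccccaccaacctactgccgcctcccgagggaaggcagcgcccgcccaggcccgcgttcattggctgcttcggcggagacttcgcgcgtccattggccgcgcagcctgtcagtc
Foxo3: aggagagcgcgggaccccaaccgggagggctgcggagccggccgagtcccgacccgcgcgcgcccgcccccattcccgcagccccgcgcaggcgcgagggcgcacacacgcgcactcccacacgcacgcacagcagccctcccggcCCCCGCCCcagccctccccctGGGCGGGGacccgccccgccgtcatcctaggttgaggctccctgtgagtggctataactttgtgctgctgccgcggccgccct

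Both starts are rich in CpG, with 20 CpG dinucleotides in the Foxo1 stretch and 31 in that of Foxo3. Over 1 kb centred on the TSS, the ratio of observed to expected CpG was 1.05 for Foxo1, 0.835 for Foxo3, 0.721 for Foxo4 and 0.926 for Foxo6, where the median over 21922 coding genes was 0.552. G and C made up 68.0%, 68.8%, 61.6% and 74.3% of the same windows in that order, against a median of 54.8%. The 4 starts were thus all above the median in both measures, whether or not a site covered them. The starts inside a site, those of Foxo1 and Foxo6, had the highest CpG ratios, and those of Foxo3 and Foxo4 were in no site. In G and C the Foxo3 start was above that of Foxo1.

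Promoter sites, those whose midpoint was at most 2 kb from an annotated transcript start on either side, were 5 of the 16 family sites, where they were 45.6% of all sites. They were both sites of Foxo1, both of Foxo4 and site 2 of Foxo6. The other 11 Foxo6 sites were nonpromoter sites by this rule, with midpoints in introns or between genes. The site that contained the Foxo6 TSS was among them, since its midpoint lay 2.69 kb downstream. It is therefore part of the nonpromoter widths and word rates given below. The site that covered part of the last exon also had its midpoint in an intron. With any overlap with the promoter counted, 6 of the 16 family sites and 49.4% of all sites were promoter sites.

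In width, 8 of the 16 family sites reached 4 kb, where 10.3% of all sites did. Of these 6 belonged to Foxo6, and its sites had a median of 3704 bp, where all sites had a median of 1995 bp. Compared only with nonpromoter sites, the medians were 4184 bp for the 11 of Foxo6 and 1865 bp for all 2228. The breadth of a site depends on the settings of the peak caller, whose part in these widths was not tested.

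**Figure D3:**
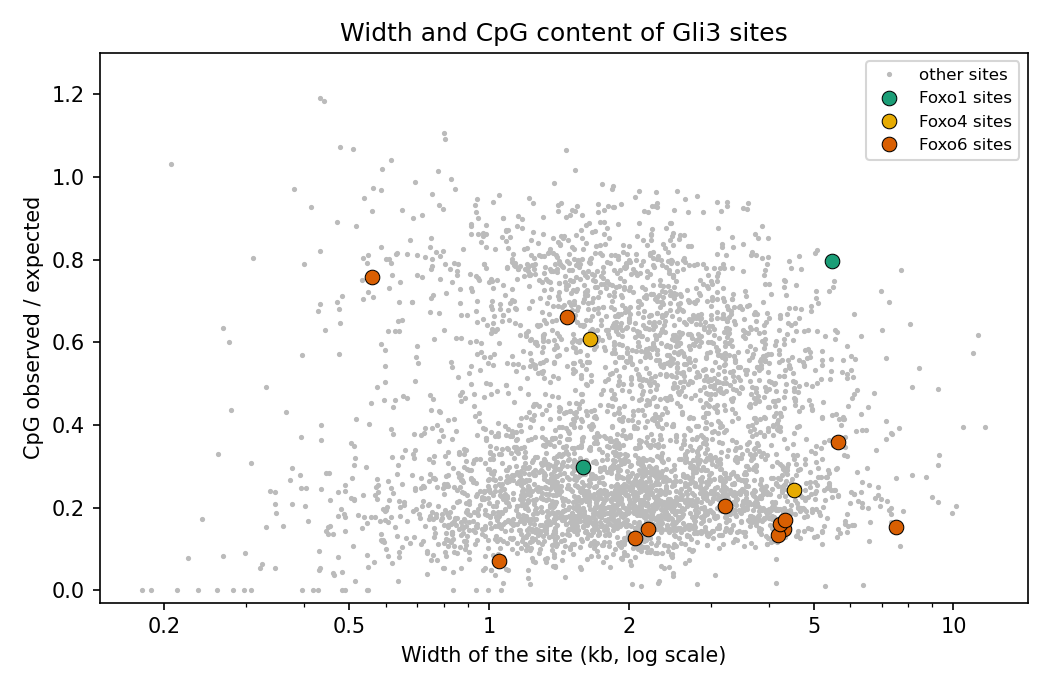
Width and CpG content of each Gli3 site. The x axis is the width in kb on a log scale and the y axis is the ratio of observed to expected CpG, with Foxo1, Foxo4 and Foxo6 sites in colour and other sites in grey (1 of them above the axis). The Foxo6 sites other than sites 2, 3 and 6 sit at the bottom with a ratio of 0.204 or less, over widths from 1053 to 7528 bp.

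The plot of width against CpG content separates the Foxo6 sites. The 3 that touch the first or last exon or the promoter had the most CpG, with ratios of 0.757 for site 2, 0.358 for site 3 and 0.661 for site 6. The other 9 lay between 0.0708 and 0.204, all below the median of nonpromoter sites, 0.221, although G and C made up 50.6 to 57.1% of them. Such values are usual for mammalian DNA outside CpG islands. Foxo1 site 2, over the first exon, had a ratio of 0.796, and Foxo4 site 2 had 0.243.

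The GLI core GACCACCCA, the word that the zinc fingers of Gli proteins bind best, was found on either strand in 1 of the 16 family sites, where 12.2% of all sites held it. That site was Foxo4 site 2, next to Nlgn3, and the 12 Foxo6 sites, with 40.8 kb of sequence, held 0 copies. A count of 0 in 12 sites allows a share of up to 25.0%, and 0 in that length allows up to 73.5 cores per Mb, by counting error only. All sites held 63.3 cores per Mb, nonpromoter sites 85.3, and nonpromoter sites of 4 kb or more 43.0. The limit by length lay above the rates of all sites and of wide nonpromoter sites, and below the rate of nonpromoter sites together. The limit by share, 25.0%, lay above the 14.7% of nonpromoter sites that held a core. The 2 limits thus differ against nonpromoter sites, and whether Foxo6 sites hold fewer cores than those was not tested. Regions of the same length beside the family sites held 0 in 32, and beside all sites 1.83% held it, and 9 of the 32 touched another site of the list.

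Matches that differ from the core at 1 base were common, as they are in the whole list. With at most 1 mismatch allowed, 10 of the 16 family sites and 64.7% of all sites held a match, and 8 of the 12 Foxo6 sites did, with 17 matches. The rate was 0.416 per kb in Foxo6 sites and 0.475 per kb in all sites. The first 8 bases of the core, GACCACCC, which lie within it, were found in 2 family sites, Foxo4 site 2 and Foxo6 site 3, and in 20.4% of all sites. They were also in 4 of the 32 regions beside the family sites, the same 12.5% as in the sites themselves, where 5.05% of the regions beside all sites held them. By these counts the Foxo6 sites were no richer in the core than the list.

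The matches shown here are the exact core of Foxo4 site 2 and the 4 near-matches of Foxo6 site 3, which had the most. The near-match closest to the middle of a Foxo6 site, in site 4, and 1 of the 2 near-matches in each of sites 1 and 11 are also shown. Each is printed 5′ to 3′ on the strand of the match with 20 bases to either side, and capitals mark the match. Substitutions give the core base, its position counted from 1 at the 5′ end of GACCACCCA, and the base found. The core of Foxo4 site 2 was on the minus strand at chrX:101299248-101299256. In Foxo6 site 3 the matches were A9C on the plus strand at chr4:120285005-120285013, G1A on the minus strand at chr4:120284552-120284560, A2G on the minus strand at chr4:120283735-120283743 and C6T on the plus strand at chr4:120286896-120286904, the last inside the first exon. The match of site 4, A2C on the plus strand at chr4:120277533-120277541, lay 21 bp from the midpoint of the site. Those shown for site 1 (chr4:120370222-120370230) and site 11 (chr4:120230587-120230595) were both A2G on the plus strand. The near-match not shown was A2T in site 1 and C3A in site 11, and each lay closer to the midpoint of its site.
Foxo4 site 2, exact: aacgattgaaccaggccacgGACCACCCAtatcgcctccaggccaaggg
Foxo6 site 3, A9C: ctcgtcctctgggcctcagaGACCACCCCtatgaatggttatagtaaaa
Foxo6 site 3, G1A: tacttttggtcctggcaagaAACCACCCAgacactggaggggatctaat
Foxo6 site 3, A2G: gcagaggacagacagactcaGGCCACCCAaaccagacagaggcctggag
Foxo6 site 3, C6T: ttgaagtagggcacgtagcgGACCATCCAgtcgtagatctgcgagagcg
Foxo6 site 4, A2C: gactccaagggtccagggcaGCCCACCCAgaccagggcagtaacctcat
Foxo6 site 1, A2G: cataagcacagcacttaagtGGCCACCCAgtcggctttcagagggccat
Foxo6 site 11, A2G: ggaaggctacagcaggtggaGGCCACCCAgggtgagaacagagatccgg

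The substitution seen most often in the Foxo6 sites was A2G, in 4 of the 17 matches, followed by A5T, C3A and C6T with 2 each, and 7 others were found once. Sites 2, 5, 7 and 12 held no match at all. These included the promoter site, which is rich in CpG, and 3 that are poor in it. In Foxo1 site 2 the 2 matches were C3A and A2G, and Foxo1 site 1 and Foxo4 site 1 held none.

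**Figure D4:**
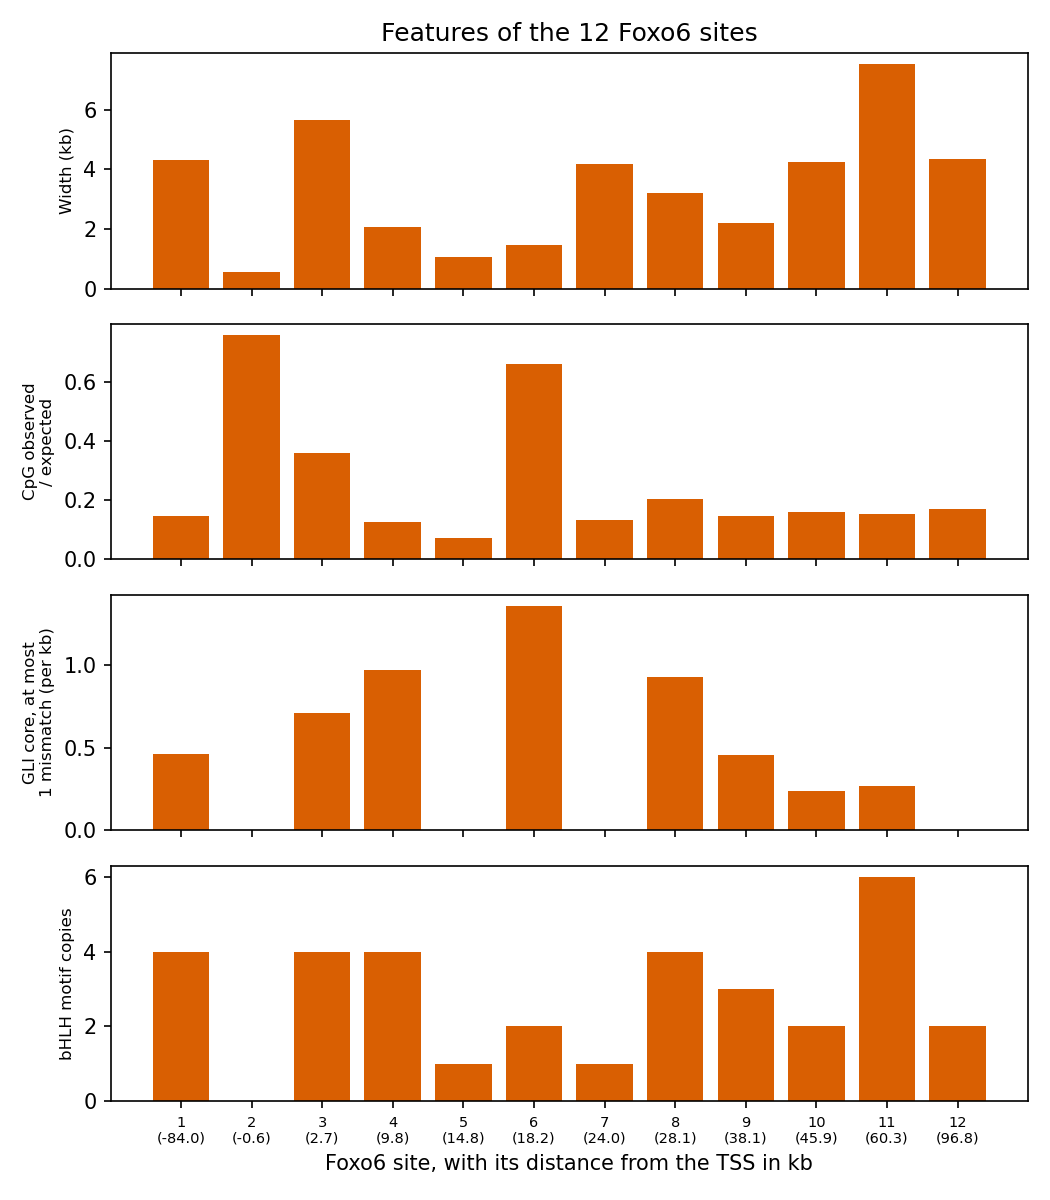
Features of the 12 Foxo6 sites in the direction of transcription, with the distance from the TSS in kb under each number. The panels give the width in kb, the ratio of observed to expected CpG, the matches to the GLI core with at most 1 mismatch per kb and the number of CAGCTG words, with bars starting at 0. Site 11 is the widest at 7528 bp and has the most CAGCTG words, 6, while site 2 has the highest CpG ratio and no match of either word.

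The bHLH word CAGCTG, an E-box bound by basic helix-loop-helix proteins, was the most frequent of the other words searched, as the plot of features of the 12 Foxo6 sites shows. It was found in 15 of the 16 family sites and in 68.6% of all sites, and in Foxo6 in all sites but site 2. Foxo6 sites held 33 copies, or 0.808 per kb, where all sites held 0.675 per kb. Since a 6-base word meets wide sites more often, the rate per kb is the fairer measure. In nonpromoter sites it was 0.820 per kb for Foxo6 and 0.736 per kb for all.

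Of the words for factors of the forebrain, the SOX word AACAAAG was in 10 family sites, 7 of them of Foxo6, and in 37.7% of all sites, while the homeobox word TAATTA was in 7, 4 of them of Foxo6, and in 38.2% of all. In nonpromoter sites the rates per kb were 0.174 for SOX in Foxo6 against 0.251 in all, and 0.174 for homeobox against 0.331. The higher share of sites with the SOX word therefore went with a lower rate per kb. The nuclear factor I (NFI) palindrome was in 0 of the 16 and in 0.439% of all sites.

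Words of promoters were in shares of family sites near those of the list. The SP word was in 5 family sites, or 31.25%, and 33.8% of all sites, and 7 copies were in Foxo6, 5 of them in site 2. The KLF word GGGCGTGG was in 3 family sites, or 18.75%, 2 of them of Foxo6, and in 13.6% of all. Per kb, family sites held 0.203 copies of the SP word and 0.0555 of the KLF word, where all sites held 0.282 and 0.0735. The forkhead word TGTTTAC, the kind of sequence FoxO proteins themselves bind, was in 4 family sites and 23.8% of all. The longer FoxO element TTGTTTAC, which contains it, was in 3 and 8.0%, and in 16.2% of the other sites of 4 kb or more. Per kb, family sites held 0.111 copies of the forkhead word and 0.0740 of the FoxO element, where all sites held 0.126 and 0.0375. The family rate of the FoxO element rests on 4 copies. Of the 12 Foxo6 sites 1 held the forkhead word, and Foxo1 site 2 held 2 copies. All words were counted on both strands, and a match describes the sequence without showing that a protein binds there.

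Genes of the pathway of FoxO proteins, from receptors to FoxO target genes, were also counted. Of 95 such genes 46 (48.4%) had a site, where 37.4% of all coding genes did, and 17 had 2 or more, where 13.3% of all coding genes did. None had more than 3. Among receptors and adaptors 6 of 7 had a site, with 3 each at Irs1 and Irs2, the docking proteins of the insulin receptor, and 2 at Igf1r, the receptor of insulin-like growth factor. Pik3r2, which encodes a regulatory subunit of PI3K, had 3. Receptors and adaptors had the highest share, though on only 7 genes. The rule counts sites along the whole gene body, which gives more room to long genes such as Igf1r, with 281 kb. The shares were not adjusted for gene length.

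Of Akt and the other kinases that act on FoxO proteins 7 of 14 had a site, with 3 at Prkaa2, a catalytic subunit of AMP-activated kinase, and 2 each at Akt2 and Cdk2. Of the mTOR and Tsc genes 3 of 9 had one, with 2 at Rptor, the defining subunit of mTOR complex 1. Among modifiers and partners of FoxO proteins 9 of 18 had one, with 3 at Ctnnb1, which encodes β-catenin. Among genes known as FoxO targets 18 of 37 had one, with 3 at Ulk1, a kinase that starts autophagy, and 2 each at Bbc3, a promoter of cell death, and Ccnd2, cyclin D2. None of these genes came near the 12 sites of Foxo6.

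Other forkhead genes did not share the row of sites. Of the 40 other genes named Fox with a letter and a number, 20 (50%) had a site, again beside 37.4% of all coding genes. Of the 40, 5 had 2 or more, where 13.3% of all coding genes did, and 0 had as many as Foxo6. The most were 3 at Foxn3, and Foxh1, the partner of Smad proteins in Nodal signalling, and Foxi3 had 2 each.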

How the data were processed

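The experiment comprised 3 Gli3 ChIP and 3 input DNA libraries of E15 wild-type cortex. The deposited values are positions and no other unit: the authors mapped 85 bases of each read to mm10 and kept peaks reproducible between replicates by irreproducible discovery rate, in 1 list with chromosome, start, end and name. Bowtie2, MACS2 and SAMtools are named in the submitters' processing notes, with no version. The settings of the peak caller and the depth per sample are not given in the sources used here.

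The family and the lists of genes and words were chosen with earlier results of these data known. Starts were made 1-based. Of the 4114 sites, 15 on scaffolds were left out of gene and sequence comparisons, and 4099 remained. Sites were classed by midpoint. A flank had the length of its site and began 1 site length from its edge. Genes named were the family, the genes nearest its sites, up to 3 pathway and forkhead genes per role with the most sites, and the 5 genes most like Foxo6, while genes with at least as many sites as Foxo6, those next below it and the genes of sites outside the rule were named after their values were seen. A few of the items covered are left out of the text. No test between groups was possible. The search was tested on simulated data. Alternatives to the window, the merging of sites, repeated sequence, the motif and the promoter were tried. The work used python 3.11.15, numpy 2.4.6, pysam 0.24.0, samtools 1.23.1 and matplotlib 3.10.9.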

Additional observations from a re-analysis of the deposited data

How the results depend on the processing

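Of 40 values under an alternative 29 stayed within 1.5 times of the value reported. With gene bodies alone the family had 5 sites and Foxo6 had 4, 28 coding genes had as many as Foxo6 or more, and 22 pathway genes and 6 other forkhead genes had a site, where 8.88% of coding genes did. Within 200 kb 70 pathway genes had a site, beside 53.6% of coding genes, and within 50 kb 13 forkhead genes, beside 25.2%. Without sites of repeated words 4 genes had as many sites as Foxo6 or more. The GLI core was in 10 family sites with 1 mismatch allowed, in 2 as its first 8 bases and in 0 within the central 200 bp, where 1.68% of all sites held it. No paired analysis was possible because the replicates were joined in 1 list, and for the same reason no replicate could be left out. A stricter threshold could not be applied because no score is given. The depth of the libraries is unknown, so a gene without a site, such as Foxo3, had none detected in this list.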
